A study of Homo sapiens with 8 samples.

Results

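This account follows 10 genes of the endoplasmic reticulum (ER) folding machinery, chosen by symbol among the 22257 gene symbols of the deposited count table: HSPA5, HSP90B1, CALR, DNAJB9, DNAJC3, SDF2L1, PDIA4, HERPUD1, SEL1L and XBP1. All 10 had a row, and all 10 passed the filter on low counts. They were read in RD-ES, a Ewing sarcoma cell line, in which a stably introduced USP6 gene is switched on by doxycycline. USP6 is a deubiquitinating enzyme that can act as an oncogene. The 4 groups of 2 replicates were doxycycline with interferon alpha, doxycycline alone, interferon alpha alone, and untreated cells, and all 4 carried the transgene as a pool of cells, not 1 clone. Interferon alpha was given at 1000 U/mL for 24 h after 24 h of doxycycline. The length of doxycycline treatment in the group without interferon is not given in the sources used here. No doxycycline-treated cells lacking the transgene are among the groups, so effects of doxycycline and of USP6 cannot be told apart. Whether the replicates were separate cultures is not stated, so the p-values measure the spread between these libraries, which may be technical.

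Proteins destined for secretion or for membranes fold inside the ER, where chaperones hold unfolded chains, oxidoreductases form disulphide bonds, and chains that fail are passed to the cytosol for degradation. When unfolded chains build up, the membrane sensors IRE1, PERK and ATF6 start the unfolded protein response. IRE1 splices the XBP1 message, ATF6 is released as a transcription factor, and PERK slows translation while raising ATF4 and its targets. HSPA5, HSP90B1, DNAJB9, SDF2L1 and HERPUD1 are textbook targets of this response. The study compared what USP6 and interferon, alone or together, did to gene expression, and the comparisons below show how far the folding genes took part.

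The table's chosen rows held between 9304569 and 11984196 reads per library, and 14601 genes were tested. USP6 stood at 408.9 and 377 CPM (counts scaled to a common library size) in cells given doxycycline with interferon, 568.7 and 558.2 CPM with doxycycline alone, 9.17 and 10.3 CPM with interferon alone, and 9.88 and 8.77 CPM in untreated cells. OAS2, an antiviral enzyme induced by interferon, stood at 678.8 and 629.7 CPM with both, 40.6 and 40.8 CPM with doxycycline alone, 515 and 511 CPM with interferon alone, and 1.61 and 2.33 CPM in untreated cells. USP6 thus went with the doxycycline label, and OAS2 was highest in the groups given interferon. OAS2 was also higher with doxycycline alone than in untreated cells (log2 fold change 4.35 ± 0.16, edgeR adjusted p = 8.64e-08). USP6 was lower with both treatments than with doxycycline alone (log2 fold change -0.52 ± 0.08, edgeR adjusted p = 0.00443). Comparisons that set these 2 groups against each other therefore do not hold the level of USP6 constant. Of the Ewing sarcoma markers, CCND1, PRKCB, STEAP1, LIPI and JAKMIP2 were each above 72 CPM in every library, and NR0B1 and NKX2-2 were present at 5.46 to 21.1 CPM. CD99, the surface antigen most used to recognise the tumour, had low counts, at 2.22 to 3.06 CPM. How its reads were mapped and counted is not given, so low counts need not mean low expression. The summed markers of leukocytes, endothelium, epithelium and skeletal muscle reached at most 4.02, 1.61, 2.17 and 1.19 CPM in any library, and MYOD1 had 0 reads. In no group did the replicates agree within sampling noise (chi-square per degree of freedom from 3.91 to 8.05), and each was kept as its own sample. The libraries carried unequal GC trends: Spearman's rho between a gene's deviation from its mean and its GC content was -0.64 and 0.05 with both treatments, -0.47 and 0.35 with doxycycline, 0.31 and 0.03 with interferon, and 0.58 and 0.12 in untreated cells.

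The promoters of some of these genes hold known stress elements. The ER stress response element (ERSE) is a pair of boxes bound by NF-Y and by ATF6 or XBP1. It was searched as CCAAT, 9 bases of any kind and CCACG, on both strands of windows from 250 bases before to 50 bases after each start site (RefSeq, GRCh38.p14). It was found in 27 of 35116 windows (0.0769%). Of the 12 windows of the 10 genes 4 held it, those of HSPA5, HSP90B1, CALR and XBP1. Its shorter variant ERSE-II, searched as ATTGG, 1 base of any kind and CCACG, was in 19 windows (0.0541%), those of HERPUD1 and SDF2L1 among them. The core of another element bound by XBP1 and ATF6, TGACGTG (1.97% of windows), and an interferon element core, GAAA, 2 bases of any kind and GAAA (3.57%), had no match in the windows of the 10 genes. A match is a description of letters and not a measured binding site. The elements and the genes were both picked as known parts of the ER stress response, so these counts are no evidence of enrichment. The stretches below are shown because they hold every ERSE or ERSE-II match of the 10 genes, including the genes called below, HERPUD1 and SDF2L1. Each is 100 bases of the gene's strand, 5′ to 3′, upstream of the start site, with the fixed bases of the match in capitals.
HSPA5, chr9:125241351-125241450, minus strand, match 66 bases upstream: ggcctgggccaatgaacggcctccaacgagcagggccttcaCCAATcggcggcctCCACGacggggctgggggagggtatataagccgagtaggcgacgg
HSP90B1, chr12:103930175-103930274, plus strand, match 194 bases upstream: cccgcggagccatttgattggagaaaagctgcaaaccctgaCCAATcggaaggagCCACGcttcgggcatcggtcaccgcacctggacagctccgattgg
HSP90B1, chr12:103930280-103930379, plus strand, reverse match 89 bases upstream: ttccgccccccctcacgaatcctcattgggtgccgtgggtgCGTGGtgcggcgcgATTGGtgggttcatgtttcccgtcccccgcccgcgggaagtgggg
CALR, chr19:12938359-12938458, plus strand, reverse match 225 bases upstream: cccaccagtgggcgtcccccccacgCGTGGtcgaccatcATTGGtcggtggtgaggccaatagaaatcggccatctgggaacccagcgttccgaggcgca
XBP1, chr22:28800570-28800669, minus strand, match 52 bases upstream: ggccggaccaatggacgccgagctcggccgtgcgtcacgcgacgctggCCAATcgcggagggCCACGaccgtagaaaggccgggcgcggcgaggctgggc
HERPUD1, chr16:56931980-56932079, plus strand, ERSE-II match 117 bases upstream: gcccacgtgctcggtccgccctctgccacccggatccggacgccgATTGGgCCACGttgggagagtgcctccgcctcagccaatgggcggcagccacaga
SDF2L1, chr22:21642069-21642168, plus strand, reverse ERSE-II match 188 bases upstream: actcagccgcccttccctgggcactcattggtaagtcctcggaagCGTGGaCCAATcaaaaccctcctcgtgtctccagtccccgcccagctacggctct

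Levels per transcript length spanned a wide range. CALR was highest at 593 ± 42.3 CPM per kb of transcript, followed by HSP90B1 at 451 ± 32.8 and PDIA4 at 131 ± 9.87 (SD over all 8 libraries of the 4 groups). HSPA5, in many cells among the most abundant ER chaperones, stood at 29.6 ± 2.52 CPM per kb. In counts per length HSP90B1 was 15.3 times and CALR 20.1 times as high. How reads were mapped and counted is not given, so these ratios need not be ratios of expression. XBP1 followed at 19.7, HERPUD1 at 13.8, DNAJB9 at 12.9, SEL1L at 11.7 and DNAJC3 at 10.1 CPM per kb. SDF2L1 was lowest, at 3.98 ± 1.59 CPM per kb and between 18 and 67 reads per library. The ranges over libraries of CALR, HSP90B1, PDIA4, HSPA5 and XBP1 did not touch one another. Those of XBP1, HERPUD1, DNAJB9, SEL1L and DNAJC3 each overlapped their neighbour's, so neighbours in this order are not separated by the spread. Further apart, the range of XBP1 lay above those of DNAJB9, SEL1L and DNAJC3, and the range of DNAJB9 above that of DNAJC3. Per-length levels placed CALR above 99.6% and SDF2L1 above 31.9% of the 14360 tested genes with a known transcript length.

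**Figure D1:**
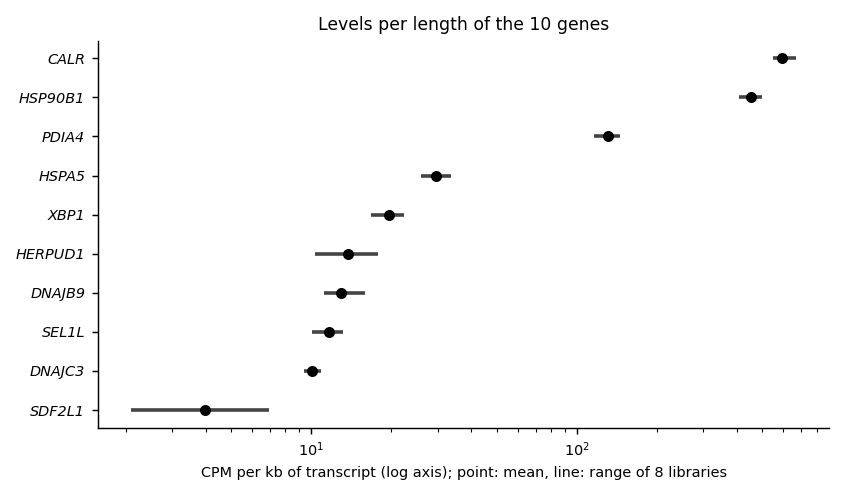
Mean CPM per kb of transcript of each of the 10 genes on a log axis (point), with the lowest and highest of 8 libraries (line). CALR and HSP90B1 stand at 593 and 451 CPM per kb, above HSPA5 at 29.6, and SDF2L1 is lowest at 3.98.

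The combination of doxycycline and interferon was compared with no treatment to ask what both together did. Of the 10 genes 1 rose, HERPUD1, 1 fell, SDF2L1, and 8 were not called. In that comparison 13.9% of all tested genes were called, 7.12% higher and 6.73% lower, so the members' share of 2 in 10 is near the background. The members' median log2 fold change was 0.11, beside -0.02 over all tested genes. For 7 of the 10 the interval (95%, from the edgeR fit, for each gene alone) lay within 1.5-fold in either direction.

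HERPUD1 encodes an ER membrane protein that takes part in ER-associated degradation and is itself a short-lived product of ER stress. It stood at 33.1 and 30.85 CPM with doxycycline and interferon, 22.03 and 27.4 CPM with doxycycline, 27.2 and 25.4 CPM with interferon, and 20.7 and 19.15 CPM in untreated cells. Cells given both treatments were above every other library, and untreated cells were below every other one. The mean was 31.95 ± 1.57 CPM with both treatments against 19.93 ± 1.1 CPM in untreated cells (SD, n = 2 each), a log2 fold change of 0.68 ± 0.14 (SE; 1.6-fold, interval 1.29 to 2; edgeR adjusted p = 0.0119). The call was lost without untreated replicate 2 (0.63, edgeR adjusted p = 0.082) or without replicate 1 of both treatments (0.64, edgeR adjusted p = 0.087). With GC and length correction, a loess fit per library that takes out dependence on both properties of a transcript, the value was again 0.68 (edgeR adjusted p = 0.0021). In such bulk RNA, a change in every cell and a change in some cells cannot be told apart. HERPUD1 has 3 transcript rows, of which the smallest held 99.1% of the reads of the largest.

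SDF2L1 encodes a small soluble ER protein that works with HSPA5 and its J-domain partners. It stood at 1.81 and 2.39 CPM with both treatments, 2.42 and 2.72 CPM with doxycycline, 3.99 and 4.495 CPM with interferon, and 3.70 and 5.995 CPM in untreated cells. All 4 libraries given doxycycline were below all 4 libraries without it. The mean was 2.1 ± 0.407 CPM with both treatments against 4.85 ± 1.62 CPM in untreated cells (SD, n = 2 each), a log2 fold change of -1.21 ± 0.31 (0.432-fold, interval 0.269 to 0.693; edgeR adjusted p = 0.0274). These means rest on 40 and 106 reads. The transcript has a GC content of 65.5%, the highest of the 10 genes, which otherwise span 39.4% to 53.9%. After GC and length correction the value was -0.49 ± 0.35 (edgeR adjusted p = 0.35). DESeq2 gave -1.20 (adjusted p = 0.082). The call was also lost without untreated replicate 2 (-0.82), either interferon library (-1.21 each, edgeR adjusted p = 0.053) or replicate 1 of both treatments (-1.02).

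**Figure D2:**
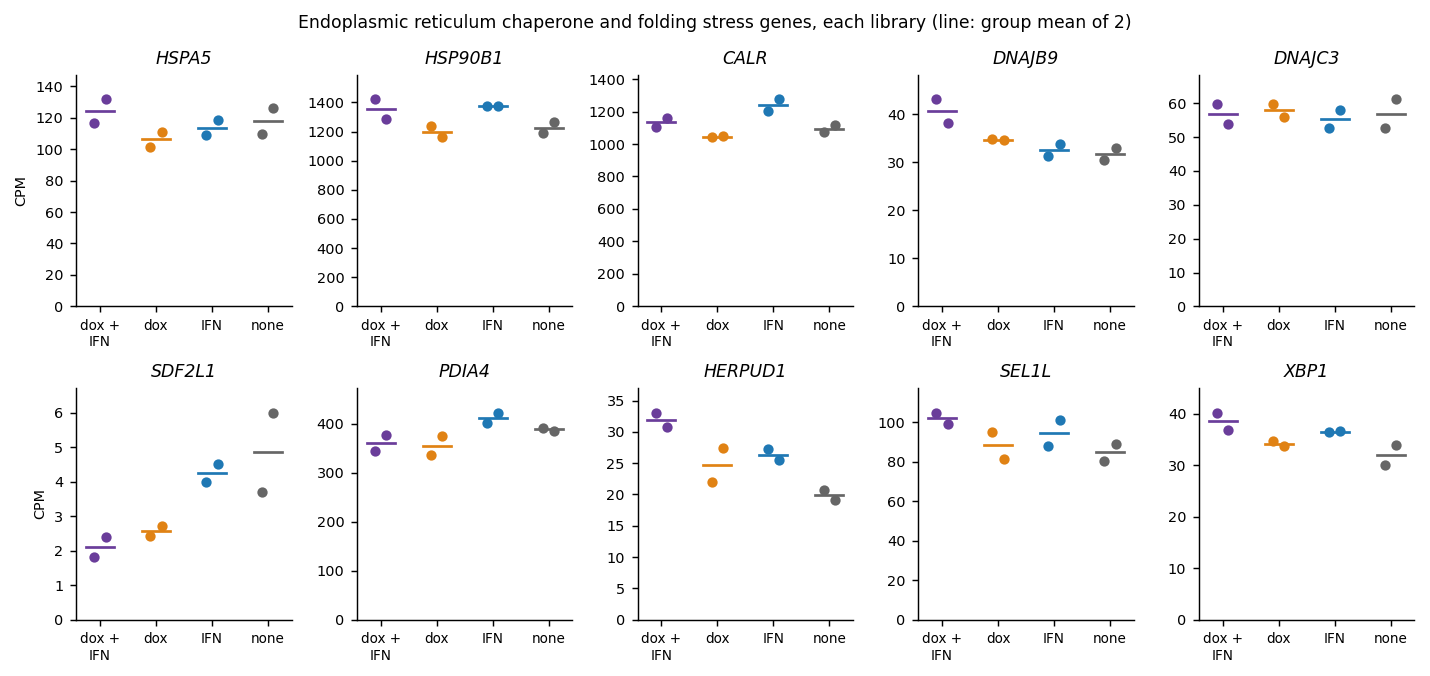
CPM of each of the 10 genes in every library (points) with the mean of the 2 libraries of a group (line), for doxycycline with interferon (dox + IFN), doxycycline (dox), interferon (IFN) and untreated cells (none). HERPUD1 is highest with both treatments (33.1 and 30.85 CPM) and SDF2L1 is lowest there (1.81 and 2.39 CPM), while HSPA5 stays between 101.5 and 131.6 CPM in all libraries.

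The main chaperones were not called in this or any other comparison. HSPA5, also called BiP, is the ER member of the heat shock 70 family and keeps the stress sensors inactive. It stood at 116.5 and 131.6 CPM with both treatments, 101.5 and 110.8 CPM with doxycycline, 108.9 and 118.4 CPM with interferon, and 109.9 and 126.3 CPM in untreated cells. Both treatments overlapped untreated cells, at a log2 fold change of 0.07 ± 0.10 (interval 0.896- to 1.23-fold; edgeR adjusted p = 0.688). HSP90B1, also called GRP94, is the heat shock 90 protein of the ER. It stood at 1421 and 1289 CPM with both treatments, 1235 and 1164 CPM with doxycycline, 1377 and 1376 CPM with interferon, and 1191 and 1263 CPM in untreated cells. The 4 libraries given interferon were above the 4 without it, and the difference between both treatments and none was 0.14 ± 0.09 (interval 0.961- to 1.27-fold; edgeR adjusted p = 0.318). CALR, calreticulin, binds glycoproteins as they fold and helps to load MHC class I molecules. It stood at 1107 and 1161 CPM with both treatments, 1042 and 1050 CPM with doxycycline, 1204 and 1275 CPM with interferon, and 1074 and 1116 CPM in untreated cells. Its highest libraries were those given interferon alone, and both treatments against none gave 0.05 ± 0.09 (edgeR adjusted p = 0.729). With GC and length correction CALR passed the threshold there, at 0.17 (edgeR adjusted p = 0.044).

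Among the co-chaperones, DNAJB9 and DNAJC3 are J-domain proteins that drive the ATPase of HSPA5, and DNAJC3 is also known as an inhibitor of eIF2alpha kinases. DNAJB9 stood at 43.1 and 38.2 CPM with both treatments, 34.8 and 34.8 CPM with doxycycline, 31.3 and 33.8 CPM with interferon, and 30.5 and 32.9 CPM in untreated cells. Cells given both treatments had the highest values, with a log2 fold change of 0.36 ± 0.12 over untreated cells that missed the threshold (interval 1.07- to 1.54-fold; edgeR adjusted p = 0.0715). Without replicate 2 of both treatments it passed, at 0.45 (edgeR adjusted p = 0.048). DNAJC3 stood at 59.9 and 53.9 CPM with both treatments, 59.7 and 56.0 CPM with doxycycline, 52.65 and 58.05 CPM with interferon, and 52.6 and 61.1 CPM in untreated cells. All groups of DNAJC3 overlapped, and its difference was 0.00 ± 0.11 (interval 0.839- to 1.19-fold; edgeR adjusted p = 0.999). PDIA4, a disulphide isomerase of the ER, stood at 343.7 and 377.5 CPM with both treatments, 335.8 and 374.7 CPM with doxycycline, 402 and 422 CPM with interferon, and 391.9 and 385.1 CPM in untreated cells. Like SDF2L1 it was lower in all 4 libraries given doxycycline than in the 4 without, but by a small amount, -0.11 ± 0.09 for both treatments against none (edgeR adjusted p = 0.454).

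SEL1L, the partner of the ubiquitin ligase HRD1 in ER-associated degradation, stood at 104.9 and 99.3 CPM with both treatments, 95.03 and 81.5 CPM with doxycycline, 87.95 and 101.1 CPM with interferon, and 80.4 and 89.0 CPM in untreated cells. The difference between both treatments and none was 0.27 ± 0.11 (interval 1.02- to 1.42-fold; edgeR adjusted p = 0.128). XBP1, the transcription factor made by the IRE1 branch, stood at 40.2 and 36.8 CPM with both treatments, 34.6 and 33.7 CPM with doxycycline, 36.4 and 36.6 CPM with interferon, and 30.1 and 33.9 CPM in untreated cells. Its difference from untreated cells with both treatments was 0.27 ± 0.12 (interval 1- to 1.44-fold; edgeR adjusted p = 0.16). After GC and length correction it was 0.29 (edgeR adjusted p = 0.039). XBP1 has 2 transcript rows, one for the unspliced and one for the spliced form in RefSeq, and they held the same count in all 8 libraries. The counts therefore do not tell the spliced message, the product of active IRE1, from the unspliced one. Groups given both treatments and none did not overlap for 7 of the 10 genes, 5 higher (HSP90B1, DNAJB9, XBP1, HERPUD1 and SEL1L) and 2 lower (SDF2L1 and PDIA4). Over all tested genes 56.1% did not overlap in that comparison, 28.1% higher and 28% lower.

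Interferon alone was compared with no treatment to ask for the response without switching on USP6. None of the 10 genes was called by edgeR or DESeq2, where 2.12% of all tested genes were called by edgeR. At an unadjusted p under 0.05 there was 1 member, HERPUD1, and 1700 of all tested genes. HERPUD1 averaged 26.33 ± 1.26 CPM with interferon and 19.93 ± 1.1 CPM in untreated cells (SD, n = 2 each), a log2 fold change of 0.40 ± 0.14 (interval 1.06- to 1.65-fold; edgeR adjusted p = 0.285). CALR differed by 0.18 ± 0.09 (edgeR adjusted p = 0.454) and HSP90B1 by 0.17 ± 0.09 (edgeR adjusted p = 0.526), and in both genes the libraries of the 2 groups did not overlap. With GC and length correction CALR passed the threshold, at 0.21 (edgeR adjusted p = 0.041). HSPA5 differed by -0.06 ± 0.10, with an interval of 0.821- to 1.13-fold. Of the 10 intervals 8 lay within 1.5-fold in either direction, all but those of HERPUD1 and SDF2L1. The libraries of the 2 groups did not overlap for 5 of the 10 genes, beside 44.9% of all tested genes.

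Doxycycline alone was compared with no treatment to ask what switching on USP6 did. None of the 10 genes was called by edgeR or DESeq2, where edgeR called 0.815% of all tested genes. At an unadjusted p under 0.05 there was 1 member, SDF2L1, and 1993 of all tested genes. SDF2L1 averaged 2.57 ± 0.212 CPM with doxycycline and 4.85 ± 1.62 CPM in untreated cells (SD, n = 2 each). Its log2 fold change was -0.92 ± 0.29 (interval 0.34- to 0.824-fold, edgeR adjusted p = 0.215). Over the alternative settings listed below, besides leaving out single libraries, this value ranged from -0.93 to -0.56. The transcript of SDF2L1 has the highest GC content of the 10 genes. HERPUD1 differed by 0.31 ± 0.14 (edgeR adjusted p = 0.376) and HSPA5 by -0.15 ± 0.10 (interval 0.767- to 1.05-fold; edgeR adjusted p = 0.535). The members' median was 0.00, as over all tested genes. The 2 groups did not overlap for 5 of the 10 genes, beside 44.4% of all tested genes.

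Interferon in doxycycline-treated cells was examined by comparing both treatments with doxycycline alone, and doxycycline in interferon-treated cells by comparing both treatments with interferon alone. No member was called in either by edgeR or DESeq2, where edgeR called 3.33% and 1.34% of all tested genes. At an unadjusted p under 0.05 there was 1 member in the first (2265 of all tested genes), HERPUD1, and 2 in the second (2170 of all tested genes), DNAJB9 and SDF2L1. HERPUD1 differed by 0.37 ± 0.14 between both treatments and doxycycline alone (edgeR adjusted p = 0.229), beside 0.40 for interferon alone against none. HSPA5 differed by 0.22 ± 0.10 between both treatments and doxycycline alone (interval 0.997- to 1.37-fold; edgeR adjusted p = 0.333). SDF2L1 differed by -1.01 ± 0.32 between both treatments and interferon alone (edgeR adjusted p = 0.178) and DNAJB9 by 0.32 ± 0.12 (edgeR adjusted p = 0.251). Over alternative settings besides leaving out single libraries, these values ranged from -1.02 to -0.59 for SDF2L1 and from 0.24 to 0.34 for DNAJB9. Groups did not overlap for 8 of the 10 genes in the first comparison (42.7% of all tested genes) and for 6 in the second (46%). The interaction, which tests whether the interferon response differed with doxycycline, called 0.171% of all tested genes by edgeR and none of the 10 by edgeR or DESeq2. At an unadjusted p under 0.05 there were 0 members and 287 of all tested genes. HSPA5 had the largest interaction of the 10, 0.28 ± 0.15 (interval 0.97- to 1.52-fold; edgeR adjusted p = 1). That of HERPUD1 was -0.03 ± 0.20 (interval 0.719- to 1.33-fold).

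**Figure D3:**
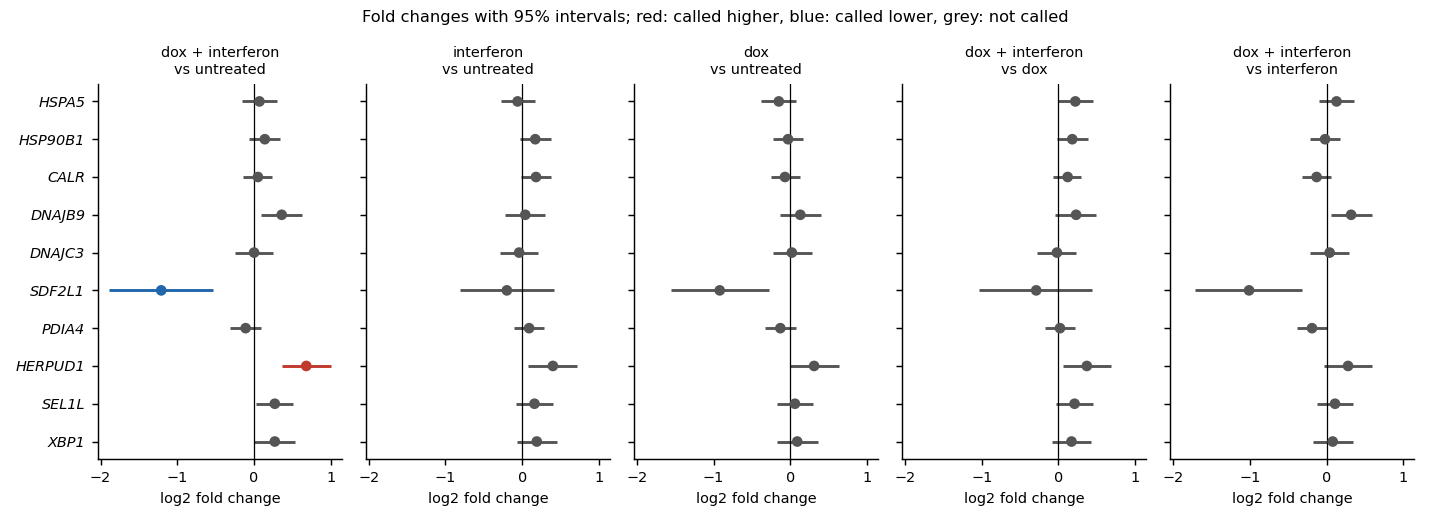
Log2 fold changes (points) with 95% intervals (lines) of the 10 genes in the 5 comparisons of groups, the first-named group over the second. HERPUD1 (0.68) and SDF2L1 (-1.21) with both treatments against none are the only called values.

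The 10 genes did not form 1 pattern over the 8 libraries. Of the 45 pairs 32 had a Pearson's r above 0 on log2 CPM, and the median was 0.3, as a description of libraries that share depth and GC trends. XBP1 and SEL1L were the most alike (r = 0.85), and DNAJB9 and SDF2L1 the least (-0.76). HERPUD1 had an r of 0.77 with XBP1, 0.73 with DNAJB9, 0.21 with HSPA5 and -0.69 with SDF2L1. The genes most like HSPA5 over the 8 libraries, among 9983 others with a mean of at least 10 CPM, were CECR2 and PSEN2 (r = 0.919 each), ATP6V1G1 (0.907), SRP68 (0.902) and HARS (0.892). HSPA5 itself only ranged from 101.5 to 131.6 CPM. The highest of so many values over 8 libraries can be this large by chance, and the ranking was not tested.

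Of 15 tested genes listed for signalling in the unfolded protein response, 5 rose with both treatments against none and 10 were not called (median 0.11). Among all tested genes 7.12% were called higher. The 15, called sensors and factors below, include proteases and other regulators besides sensors and transcription factors. DDIT3, which encodes the factor CHOP of the PERK branch, stood at 128.6 and 137.8 CPM with both treatments, 85.7 and 76.4 CPM with doxycycline, 115.7 and 110.6 CPM with interferon, and 60.7 and 71.7 CPM in untreated cells. The groups of DDIT3 did not overlap, and its log2 fold change for both treatments against none was 1.01 ± 0.11 (edgeR adjusted p = 8.69e-05). TRIB3, a pseudokinase induced by ATF4 and CHOP, rose by 1.03 ± 0.18 (edgeR adjusted p = 0.0049), and ATF4, the factor translated when eIF2alpha is phosphorylated, rose by 0.51 ± 0.08 (edgeR adjusted p = 0.00273). These 3 genes kept their calls without each library in turn. Whether their rise came from ER stress or from another route to eIF2alpha phosphorylation was not tested. The sensor ATF6 rose by 0.34 ± 0.10 (edgeR adjusted p = 0.0378). That call ended on leaving out either untreated library, either interferon library or replicate 1 of both treatments (0.28 to 0.41). MBTPS2, a protease that releases ATF6 from the membrane, rose by 0.51 ± 0.15 (edgeR adjusted p = 0.0497), a call lost when any 1 of the 8 was left out (0.35 to 0.66).

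With interferon alone DDIT3 rose by 0.77 ± 0.11 (edgeR adjusted p = 0.00156) and TRIB3 by 0.92 ± 0.18 (edgeR adjusted p = 0.0253). The other 13 of the 15 sensors and factors were not called, where 2.12% of all tested genes were called. At an unadjusted edgeR p under 0.05 there were 7 of the 15, beside 1700 of all tested genes. NFYA was lower, at -0.42 ± 0.11 (edgeR adjusted p = 0.0834). With GC and length correction 3 rose and 2 fell, beside 527 and 367 of all tested genes. The call of TRIB3 was lost when untreated replicate 2 or 1 of the interferon libraries was left out (0.75 to 1.08). In both treatments against doxycycline alone DDIT3 rose by 0.72 ± 0.10 (edgeR adjusted p = 0.00194) and TRIB3 by 0.83 ± 0.18 (edgeR adjusted p = 0.0303). TRIB3 lost the second call without either doxycycline library or replicate 2 of both treatments (between 0.65 and 0.91). In that comparison 6 of the 15 had an unadjusted edgeR p under 0.05, beside 2265 of all tested genes. NFYA was again lower (-0.41 ± 0.10, edgeR adjusted p = 0.0617). With the correction 5 rose and 1 fell there, beside 953 and 529 of all tested genes. With doxycycline alone against none 0 of 15 were called by edgeR or DESeq2 and 2 had an unadjusted p under 0.05, DDIT3 (0.29 ± 0.11, edgeR adjusted p = 0.269) and ATF4 (0.22 ± 0.08, edgeR adjusted p = 0.293).

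Without GC and length correction, the rest of the ER machinery changed in a few genes and in either direction with both treatments against none. Of 18 other ER chaperones 0 rose, 1 fell and 17 were not called (median 0.01). The gene that fell was CRELD2, a stress-induced ER protein, at 8.44 ± 0.815 CPM with both treatments and 13.49 ± 1.61 CPM in untreated cells (log2 -0.68 ± 0.19, edgeR adjusted p = 0.0411), and DESeq2 called 0 of the 18. HYOU1, CANX and MANF, close partners or relatives of the 10 genes, were among the 17. Of 15 genes of oxidative folding 3 rose, 1 fell and 11 were not called (median 0.04). They were ERO1LB, an oxidase that recharges disulphide isomerases (0.57 ± 0.14, edgeR adjusted p = 0.0241), ERP44 (0.37 ± 0.10, edgeR adjusted p = 0.0295), TXNDC12 (0.32 ± 0.08, edgeR adjusted p = 0.0314) and, lower, the disulphide isomerase P4HB (-0.38 ± 0.10, edgeR adjusted p = 0.0374). Of 22 genes of ER-associated degradation 4 rose, 1 fell and 17 were not called (median 0.14). EDEM1, which marks misfolded glycoproteins for disposal and is an XBP1 target, rose by 0.44 ± 0.12 (edgeR adjusted p = 0.0316). RNF139, EDEM3 and ERLEC1 rose by 0.36, 0.34 and 0.36, and AUP1 fell by 0.41 on the log2 scale (edgeR adjusted p = 0.0247). Of 27 genes of translocation and glycosylation 0 rose, 1 fell (SSR4, -0.61 ± 0.13, edgeR adjusted p = 0.0141) and 26 were not called (median -0.07).

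The genes called higher and lower differed in GC content. Over these lists, ER-to-Golgi transport and the heat shock proteins outside the ER, 13 of 137 genes rose (9.49%, beside 7.12% of all tested genes) and 8 fell (5.84%, beside 6.73%). The transcripts of the 13 had a median GC content of 44.7%, those of the 8 one of 59.1%. After GC and length correction 12 of the 13 and 4 of the 8 kept their calls. The calls that ended were those of AUP1 (-0.05, edgeR adjusted p = 0.71), P4HB (-0.10, edgeR adjusted p = 0.26), CRELD2 (-0.24, edgeR adjusted p = 0.27) and SSR4 (-0.19, edgeR adjusted p = 0.072) among the lower genes and MBTPS2 (0.40, edgeR adjusted p = 0.055) among the higher. DDIT3, ATF4 and TRIB3 were the only 3 of the 13 whose call survived the loss of any single library, and 0 of the 8 calls did. Leaving out replicate 1 of both treatments ended the calls of CRELD2 (-0.57), P4HB (-0.24), AUP1 (-0.28), SSR4 (-0.40), ATF6 (0.31) and EDEM1 (0.38), and so did leaving out either untreated library. GC and length correction also added calls. In the 5 lists of ER genes and of export from the ER, besides the sensors and factors, 8 of 104 genes rose and 6 fell without it. With it 15 rose and 4 fell, with 6 higher in ER-associated degradation and 2 higher among the other ER chaperones. Over all tested genes the counts went from 1040 higher and 983 lower to 1753 and 1168. The part of GC content in these differences was not tested further.

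**Figure D4:**
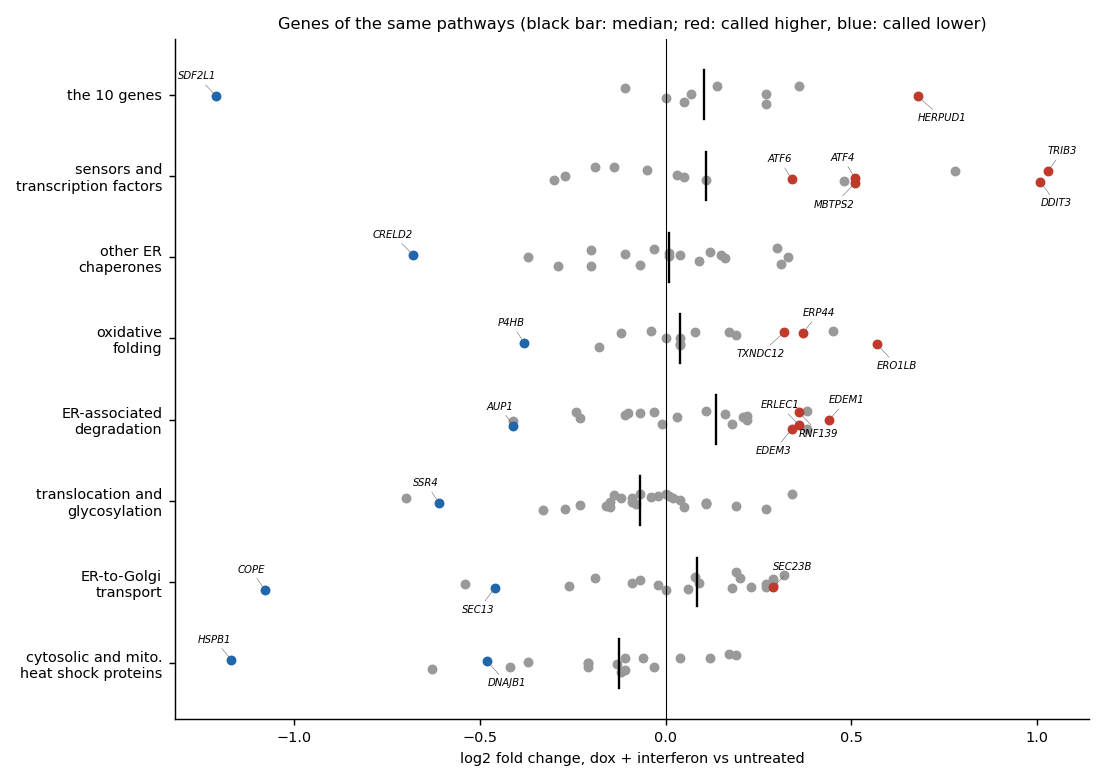
Log2 fold changes of doxycycline with interferon over untreated cells for the 10 genes and for 7 lists of related genes, 1 point per tested gene, with each list's median (black bar) and called genes in red (higher) and blue (lower). DDIT3 (1.01) and TRIB3 (1.03) stand to the right of all other genes shown, and the medians of the lists lie between -0.12 and 0.14.

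In the single-treatment comparisons with untreated cells the lists of ER genes and of export from the ER held no called gene besides the sensors and factors. Of 104 tested in these 5 lists, edgeR and DESeq2 each called 0 with interferon, with 2 at an unadjusted edgeR p under 0.05, beside 1700 of the 14601 genes tested. They called 0 with doxycycline as well, with 15 at an unadjusted edgeR p under 0.05, beside 1993 of the 14601. With GC and length correction 1 gene rose in each of these comparisons.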

How the data were processed

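Counts came from 8 RNA-seq libraries (stranded total RNA kit, per the labels' protocols). The deposited table holds whole-number read counts, not normalised, for 34917 transcripts. CASAVA 1.8.2, edgeR and hg19 are named, with no role, in the submitters' processing notes. The aligner, the counting method and its strand setting were not given in the sources used here, so overlapping genes may share reads. A further deposited column of marks, in no stated unit, was not used. Since rows of 1 gene largely share reads, 1 row per symbol, that with most reads, was used, and 30.36% of symbols had several rows.

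Tests used edgeR 4.0.16 in R 4.3.3: quasi-likelihood F test, TMM scaling (factors between 0.9775 and 1.026), the default filter, 1 mean per group and all 8 libraries, with 4 residual degrees of freedom and 0.0972 as the common biological coefficient of variation. A call is a Benjamini-Hochberg adjusted p under 0.05 over 14601 genes. Intervals use the fit's t quantile at 95%. GC content and length came from GENCODE transcripts of GRCh38, and promoters from RefSeq on GRCh38.p14. GC content was at hand for 98.3% of the tested genes. The script was tested on simulated data. Named genes are the 10, USP6, OAS2, the 3 smallest p-values per list and comparison, and 5 genes like HSPA5. Other list genes were named after their values were seen. The members and lists were chosen with earlier results of these data known. Alternatives were other size factors, DESeq2 1.42.0, filters, fewer groups, summed rows, a replicate block, the GC and length correction (loess, span 0.3), and leaving out each library. Of the listed symbols, 138 of 139 had a row and 137 were tested.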

Additional observations from a re-analysis of the deposited data

How the results depend on the processing

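Precision is limited by 2 libraries per group and, for SDF2L1, by 18 to 67 reads per library. Where 1 library was left in a group, it was taken to vary like the rest. The comparisons are doxycycline with interferon against none (A), interferon against none (B), doxycycline against none (C), both against doxycycline (D), both against interferon (E) and the interaction (F).

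In A, the 2 called members became 1 by DESeq2, 4 with the replicate block plus GC and length correction (DNAJB9, XBP1, HERPUD1 and CALR), 5 with a crossed block, and 0 to 3 without single libraries. In B 1 member, CALR, was called with the GC and length correction and with the block added to it. In D 1 was called with the block plus correction (CALR) and 1 with the crossed block (HSP90B1). Of 1070 values of single members under alternatives, 995 kept sign and call.

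Counts over all genes moved more. With the correction they were 894 (B, from 310), 558 (C, from 119), 1482 (D, from 486), 631 (E, from 196) and 50 (F, from 25), and with the block added 1014, 781, 1707, 830 and 51, and 3203 in A (from 2023). DESeq2 gave 239 in C, 302 in E and 42 in F. In C, no filter gave 207 and only the groups compared 78. Without single libraries the counts ranged from 712 to 2589 (A), 174 to 336 (B), 54 to 131 (C), 290 to 480 (D), 46 to 266 (E) and 9 to 20 (F). The counts moved by over 1.5 times without either untreated library or replicate 1 of both treatments (A), untreated replicate 2 or either interferon library (B), untreated replicate 2, interferon replicate 2 or doxycycline replicate 1 (C), either doxycycline library (D), either interferon library or replicate 1 of both treatments (E), and either untreated library, either interferon library or doxycycline replicate 1 (F).

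Same-numbered replicates correlated in their deviations at 0.337 between untreated and interferon and 0.451 between doxycycline and both treatments. Pairs of groups that differ in doxycycline ranged from -0.353 to -0.116. GC trends also differed between replicates and their part was not tested, so these correlations do not decide whether the numbers pair the libraries. The replicate block left 1705 (A), 244 (B), 121 (C), 408 (D), 173 (E) and 17 (F) genes, and no call of the 10 genes changed. A crossed block, which swaps the numbers in the doxycycline groups and was chosen after seeing the data, gave 4734 (A), 1117 (B), 1252 (C), 1864 (D), 1497 (E) and 53 (F).

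Sign changes were confined to values that were not called. With the correction, without and with the block, SDF2L1 became 0.1 and 0.1 (B) and 0.07 and 0.06 (D), DNAJC3 -0.05 and -0.05 (C and E alike), and SEL1L -0.03 and -0.03 (C). With summed rows XBP1 became 0.01 (F). Without single libraries, B ranged from -0.15 to 0.05 for HSPA5, -0.02 to 0.1 for DNAJB9, -0.14 to 0.08 for DNAJC3 and -0.5 to 0.2 for SDF2L1. C ranged from -0.07 to 0.01 for HSP90B1, -0.08 to 0.12 for DNAJC3 and -0.05 to 0.17 for SEL1L. D ranged from -0.08 to 0.07 for DNAJC3 and -0.05 to 0.11 for PDIA4. E ranged from -0.09 to 0.04 for HSP90B1 and -0.04 to 0.11 for DNAJC3. A ranged from -0.03 to 0.18 for HSPA5. F ranged from -0.05 to 0.09 for HSP90B1, -0.08 to 0.12 for DNAJC3, -0.09 to 0.07 for XBP1, -0.18 to 0.13 for HERPUD1, -0.47 to 0.2 for SDF2L1, -0.15 to 0.02 for PDIA4 and -0.05 to 0.17 for SEL1L. The cause was not tested. Other scalings moved the median of all genes by less than 0.1 on the log2 scale.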

Other observations

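Genes of ER-to-Golgi transport and heat shock proteins outside the ER were listed beside the folding genes. Of 22 transport genes 1 rose, 2 fell and 19 were not called with doxycycline and interferon against none (median 0.08). SEC23B, a coat subunit of vesicles that leave the ER, rose by 0.29 ± 0.08 (edgeR adjusted p = 0.0358). SEC13, another coat subunit, fell by 0.46 on the log2 scale (edgeR adjusted p = 0.027). COPE, of the coat that returns vesicles to the ER, stood at 19.45 and 27.04 CPM with both treatments, 26.5 and 40.4 CPM with doxycycline, 36.6 and 38.0 CPM with interferon, and 53.6 and 44.3 CPM in untreated cells (log2 -1.08 ± 0.21 for both treatments against none, edgeR adjusted p = 0.00764).

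Of 18 heat shock proteins and their partners in the cytosol and mitochondria 0 rose, 2 fell and 16 were not called in the same comparison (median -0.12). HSPB1, a small heat shock protein, stood at 11.8 and 19.2 CPM with both treatments, 15.3 and 29.8 CPM with doxycycline, 24.8 and 29.7 CPM with interferon, and 37.6 and 32.2 CPM in untreated cells (log2 -1.17 ± 0.29, edgeR adjusted p = 0.0247). DNAJB1, a J-domain partner of cytosolic chaperones, fell by 0.48 on the log2 scale (edgeR adjusted p = 0.00847). With GC and length correction COPE and HSPB1 stood at -0.50 each (edgeR adjusted p = 0.0028 for COPE and 0.041 for HSPB1), smaller differences than without it. COPE lost its call without replicate 1 of both treatments (-0.85, edgeR adjusted p = 0.096) and DNAJB1 without untreated replicate 2 (-0.4, edgeR adjusted p = 0.058). HSPB1 (-1.28 to -0.85), SEC13 (-0.51 to -0.34) and SEC23B (0.27 to 0.30) lost theirs without either untreated library, either interferon library or replicate 1 of both treatments.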
